A study of Mus musculus with 12 samples.

Results

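The genes described here are the 40 nuclear genes that encode subunits of respiratory complexes II to V and the mobile carrier cytochrome c, taken by symbol from tables of 56162 genes. They comprise 4 subunits of complex II (succinate dehydrogenase), 9 of complex III, the single gene of cytochrome c, 11 of complex IV (cytochrome oxidase) and 15 of complex V (ATP synthase). RNA of single muscle fibres from male C57BL/6J mice, labelled as aged 8 weeks, was sequenced in 12 libraries, in 4 groups of 3. Whether this was their age before training or at sampling is not resolved here. Type I (slow) fibres came from the soleus and type IIb (fast) fibres from the extensor digitorum longus, each from untrained and from treadmill-trained mice, which ran for 6 weeks on 5 days a week, 60 min each time at 12 to 16 m/min. Trained mice were killed 3 days after their final run. Fibres were freed with collagenase (2 mg/ml, 37 °C), over 90 min for the soleus and 60 min for the extensor digitorum longus, so that fibre type, muscle and digestion time cannot be told apart. No genetic change is named for any group, and the labels do not say which libraries came from separate mice.

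Complexes II, III and IV pass electrons from succinate and ubiquinol to oxygen in the inner mitochondrial membrane, with cytochrome c carrying them from complex III to complex IV, and complex V makes ATP from the proton gradient that electron transport builds. Complex II is encoded wholly in the nucleus, whereas complexes III, IV and V each join nuclear subunits to subunits encoded in mitochondrial DNA. Slow fibres are known for a high mitochondrial content, type IIb fibres for a low one, and endurance training for raising it.

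Library totals ran from 8026397 to 24995288 counts, and 3636 to 14428 genes had at least 10 counts. The 9 slow fibre markers summed to 47632 to 87125 CPM (counts scaled to the library total) in type I libraries and to 1.26 to 47.5 in type IIb libraries. The 9 fast fibre markers summed to 142607 to 246916 in type IIb libraries and to 1025 to 7476 in type I libraries, so every library followed its fibre type label. Markers of other cells were unevenly spread. The 8 endothelial markers summed to 588, 7.77 and 366 on the same scale in untrained type I libraries 1, 2 and 3, to 0.825 to 29.4 in trained type I, to 0 in all 3 untrained type IIb libraries, and to 0, 0.498 and 106 in trained type IIb. The 7 fibroblast markers summed to 8846 and the 6 mural markers to 1081 in untrained type I 3, against at most 187 and 456 in the other 11 libraries. The 5 erythroid markers summed to 1616 in untrained type I 1 and to at most 89.9 in the others. The 40 members took 4.37% to 6.17% of all counts in untrained type I, 5.3% to 7.85% in trained type I, 5.02% to 5.05% in untrained type IIb and 2.11% to 4.57% in trained type IIb. In these libraries, fewer cells of a type and less RNA per cell cannot be told apart.

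Promoter sequences are shown for members whose levels or differences are described below, since paralogues of one subunit differ in level and the motifs of known regulators of respiratory genes sit in some of them and not in others. RefSeq windows (GRCm38.p6, the build also called mm10) were at hand for 30 of the 40 members. Each line below gives the 250 bases before the annotated start, 5′ to 3′ on the strand of the gene. Capitals mark a match on either strand to NRF1 (GCGC, any base, TGCGC), an ETS site as bound by GABPA (CCGGAAG), an ERR half-site (AAGGTCA), MEF2 (CTA, any 4 bases, TAG) or an E-box (CAGCTG).
Atp5g1, chr11:96075632-96075881, minus strand: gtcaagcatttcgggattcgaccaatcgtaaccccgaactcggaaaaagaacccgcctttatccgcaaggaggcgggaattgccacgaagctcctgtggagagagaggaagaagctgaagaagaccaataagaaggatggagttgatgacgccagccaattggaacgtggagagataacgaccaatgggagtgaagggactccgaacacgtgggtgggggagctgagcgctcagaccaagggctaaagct
Atp5g2, chr15:102671048-102671297, minus strand: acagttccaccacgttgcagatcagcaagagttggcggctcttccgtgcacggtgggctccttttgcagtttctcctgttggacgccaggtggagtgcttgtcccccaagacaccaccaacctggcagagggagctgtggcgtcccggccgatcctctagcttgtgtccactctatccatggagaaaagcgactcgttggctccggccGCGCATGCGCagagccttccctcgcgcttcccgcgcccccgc
Atp5g3, chr2:73911327-73911576, minus strand: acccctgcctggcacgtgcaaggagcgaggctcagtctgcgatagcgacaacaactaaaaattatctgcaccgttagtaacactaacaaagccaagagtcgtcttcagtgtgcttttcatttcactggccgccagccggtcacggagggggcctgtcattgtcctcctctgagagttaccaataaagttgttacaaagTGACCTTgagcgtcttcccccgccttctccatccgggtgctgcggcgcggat
Cox7a1, chr7:30183921-30184170, plus strand: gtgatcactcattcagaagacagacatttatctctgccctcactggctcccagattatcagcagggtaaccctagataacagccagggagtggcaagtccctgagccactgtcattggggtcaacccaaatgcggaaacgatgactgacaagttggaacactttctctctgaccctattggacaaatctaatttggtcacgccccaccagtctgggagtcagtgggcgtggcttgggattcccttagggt
Cox7a2, chr9:79759854-79760103, minus strand: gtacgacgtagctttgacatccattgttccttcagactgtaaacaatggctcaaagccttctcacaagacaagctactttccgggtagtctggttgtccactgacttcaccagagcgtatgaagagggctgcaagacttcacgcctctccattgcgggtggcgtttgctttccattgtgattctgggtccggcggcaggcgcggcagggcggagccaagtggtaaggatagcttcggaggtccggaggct
Cox8b, chr7:140900447-140900696, minus strand: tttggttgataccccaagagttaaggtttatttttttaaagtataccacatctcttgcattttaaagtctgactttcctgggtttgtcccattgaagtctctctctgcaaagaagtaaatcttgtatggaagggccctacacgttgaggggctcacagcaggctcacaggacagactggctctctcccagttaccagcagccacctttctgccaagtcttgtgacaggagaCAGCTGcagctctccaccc
Atp5h, chr11:115419920-115420169, minus strand: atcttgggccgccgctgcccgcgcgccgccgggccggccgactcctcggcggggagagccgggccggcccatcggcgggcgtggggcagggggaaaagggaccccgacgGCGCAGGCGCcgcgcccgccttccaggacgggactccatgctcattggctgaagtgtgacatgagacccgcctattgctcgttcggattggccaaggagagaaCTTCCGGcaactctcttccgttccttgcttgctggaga
Among the 3 genes for the c subunit of ATP synthase, the window of Atp5g2 held an NRF1 match, that of Atp5g3 an ERR match, and that of Atp5g1 none of the 5 motifs. The Atp5g2 window lies inside the span of the gene given below (chr15:102662864-102672352), so it does not precede the outermost start of that gene. The windows of Atp5g1, Cox7a1, Cox7a2 and Atp5h also run partly into the spans of their genes given below. Those of Atp5g3 and Cox8b do not. The windows of Cox7a1 and Cox7a2 held none, that of Cox8b held an E-box, and that of Atp5h held an NRF1 and an ETS match. Over all 30 members, NRF1 matched in 6 (Atp5c1, Atp5g2, Atp5h, Atp5k, Sdha and Sdhd), against 3.74% of 32851 promoter windows of the same length. The 30 members have 33 windows, and a member counts as matched if any of its windows is. The percentages are of single windows, so the units differ. The ETS motif matched in 8 (Atp5e, Atp5h, Atp5j, Atp5l, Cox6b1, Sdhd, Uqcr11 and Uqcrh), against 6.91% of windows. The ERR motif matched in 2 members (4.08% of windows), MEF2 in 1 (3.2%) and the E-box in 2 (13.0%). A match describes these letters and is not evidence of binding.

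Levels per gene length placed complex IV above the other complexes in every library. FPKM, the read count scaled to gene length and library total, was used for comparisons between genes. The mean per member over 12 libraries was 3626 ± 1268 FPKM for complex IV, 1594 ± 414 for complex III, 1423 ± 378 for complex V, 872 ± 298 for cytochrome c and 472 ± 199 for complex II (SD over libraries). Complex IV had the highest mean per member in 12 of 12 libraries, and complex II the lowest in 10 of 12, cytochrome c being lowest in the other two. Complex III stood above complex V in 9 of 12 libraries, and the spreads of these neighbours in the order overlapped. Of the summed FPKM of the 40 members, complex IV held 50.1% ± 5.16 (SD, n = 12), complex V 27.7% ± 3.28 (SD, n = 12), complex III 18.5% ± 2.06 (SD, n = 12), complex II 2.55% ± 1.19 (SD, n = 12) and cytochrome c 1.09% ± 0.297 (SD, n = 12).

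**Figure D1:**
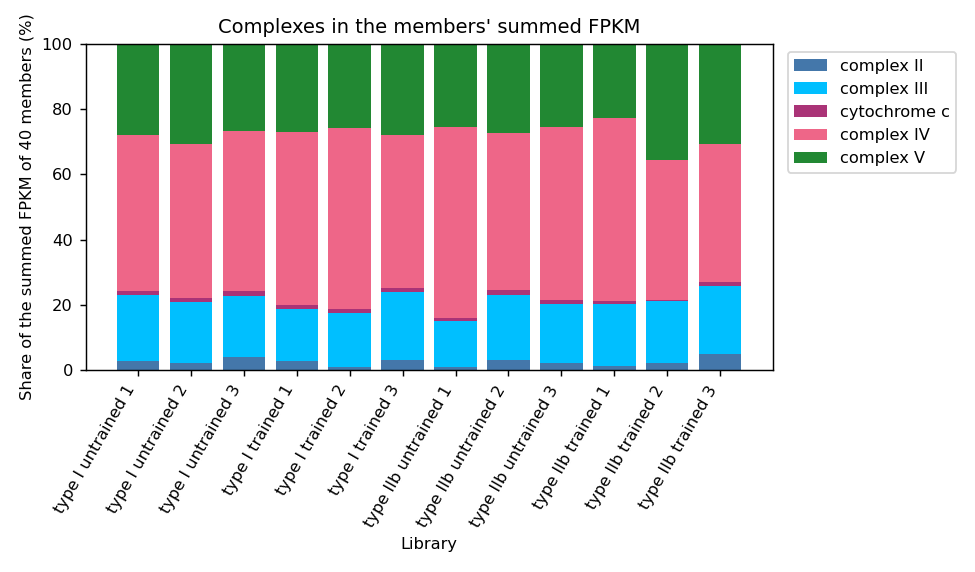
Share of the summed FPKM of 40 members (%, y axis) held by each complex in each of the 12 libraries (x axis); each bar adds to the whole. Complex IV holds 42.5% to 58.3% in every library, and complex II 0.789% to 4.88%.

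These shares varied among libraries of a group about as much as between groups. For complex IV they were 48.2% ± 0.915 (SD, n = 3) in untrained type I, 51.9% ± 4.63 (SD, n = 3) in trained type I, 53.2% ± 5.05 (SD, n = 3) in untrained type IIb and 47.2% ± 7.82 (SD, n = 3) in trained type IIb. The lowest 2 values, 43.0% and 42.5%, came from trained type IIb libraries 2 and 3, and the highest, 58.3%, from untrained type IIb library 1. For complex II the shares were 2.85%, 2.13% and 4.08% in untrained type I, 2.81%, 1.08% and 3.2% in trained type I, 0.789%, 2.94% and 2.15% in untrained type IIb, and 1.34%, 2.29% and 4.88% in trained type IIb. All 4 groups overlapped in the share of complex II.

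Subunits of one assembly were far from equal in RNA level. The highest and lowest member differed 7.02-fold in complex II (Sdhb and Sdhc), 21.2-fold in complex III (Uqcrb and Uqcrc2), 36.2-fold in complex IV (Cox6a2 and Cox5a) and 59.7-fold in complex V (Atp5k and Atp5g2). In complex IV, 10 of 11 members had a mean above 1000 FPKM, against 5 of 9 in complex III, 8 of 15 in complex V and 0 of 4 in complex II. These values depend on which paralogues are listed. Atp5g2, a minor paralogue, is a member, whereas Cox6a1 and Cox8a of complex IV are not. Cox6a1 and Cox8a reached at most 190 and 202 FPKM in any library, below the mean of 242 for Cox5a. The spread of complex IV would thus be wider with them, and its order against complex V is not settled here. Cox6a2 ranked 16 and Cox7c 17 among all genes, and one or the other led the members in every library, Cox6a2 in 7 and Cox7c in 5. The lowest member, Atp5g2, ranked 1093. The length used in the deposited FPKM equals, within 1 base, the mean length of the annotated transcripts of each of the 40 genes, which departs from the main coding transcript for some of them. With the length of the principal transcript, Sdha went from 817 to 217 FPKM (rank 27 to 33 of 40), Atp5e from 1597 to 3186 (rank 20 to 8) and Atp5l from 145 to 515 (rank 37 to 28), while Cox6a2 and Cox7c kept ranks 1 and 2 and the share of complex IV was 49.5%. On those lengths the highest and lowest member differed 15.6-fold in complex II, 48.8-fold in complex III, 22.8-fold in complex IV and 59.2-fold in complex V, so the order of complexes III and IV by this spread depended on the length used.

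**Figure D2:**
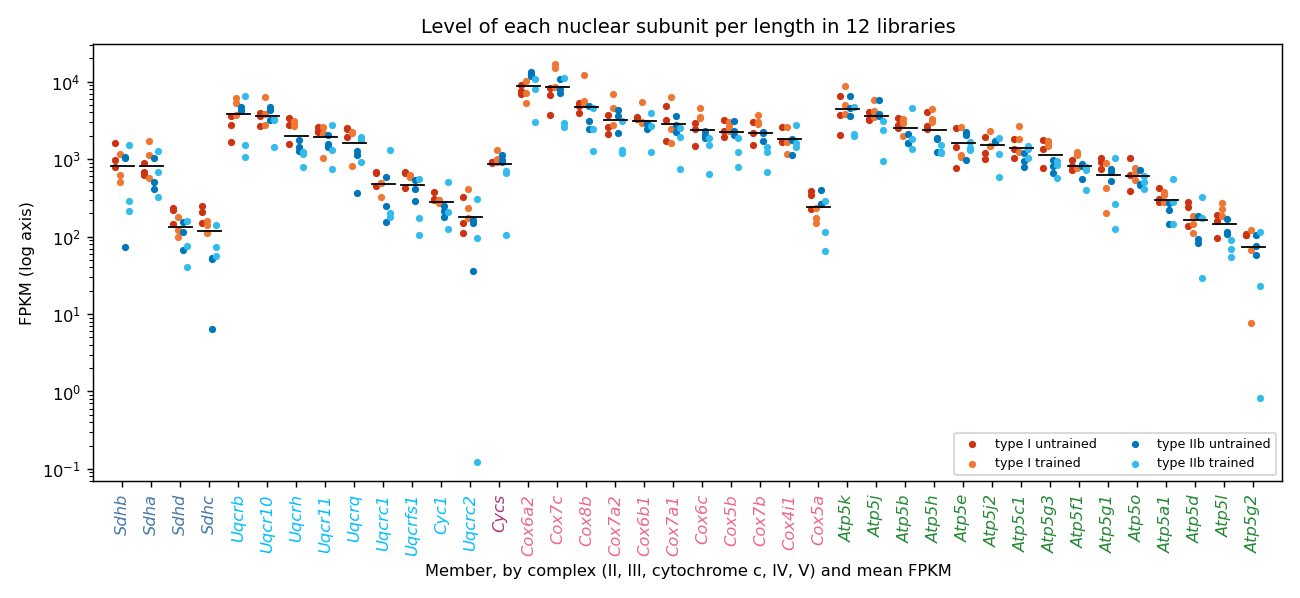
FPKM (y axis, log scale) of each of the 40 members (x axis, ordered by complex and then by mean) in the 12 libraries; points are libraries, coloured by group, and the black line is the mean of 12. Cox6a2 and Cox7c are highest, and the lowest points are Uqcrc2 and Atp5g2 in trained type IIb library 1.

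None of the 40 members passed an adjusted p of 0.05 in any of 7 comparisons tested with edgeR's quasi-likelihood test over 11747 genes. Between fibre types, 0 of 40 passed in untrained fibres (0.46% of all genes did), 0 in trained fibres (0.536%) and 0 averaged over training (1.93%). For training, 0 of 40 passed in type I, in type IIb, averaged over fibre type and for the interaction of training with fibre type, and the share of all genes called was 0% in each of these. DESeq2 also called 0 members in each of the 7 comparisons, while calling 8.78%, 2.95% and 9.35% of genes between untrained, trained and averaged fibre types, 0.502%, 3.1% and 1.93% for training in type I, in type IIb and averaged, and 3.32% for the interaction. At an unadjusted edgeR p under 0.05, members higher and lower numbered 1 and 1 between untrained fibre types (15.5% and 1.94% of all genes), 7 and 0 between trained fibre types (5.07% and 2.95%), and 2 and 1 averaged over training (13.7% and 3.15%). For training they numbered 5 and 0 in type I (0.409% and 2.53% of all genes), 0 and 1 in type IIb (6.87% and 1.35%), 1 and 0 averaged over fibre type (2.04% and 1.78%), and 6 and 0 for the interaction (0.962% and 7.98%). DESeq2 gave 1 member at an unadjusted p under 0.05 between untrained fibre types and 0 in each of the other comparisons.

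Separation of the groups, where every library of one lies above every library of the other, was also counted. Between untrained fibre types, 1 member was higher in type I (Sdhc) and 6 were lower (Uqcrb, Cycs, Cox5a, Cox6a2, Cox7c and Atp5j), against 22.8% and 4.88% of all genes. Between trained fibre types, 3 were higher in type I (Uqcrh, Atp5h and Atp5l) and 0 lower, against 6.72% and 3.77%. For training in type I, 2 were higher (Sdha and Atp5f1) and 1 lower (Cox5a), against 2.78% and 8.93%. For training in type IIb, 2 were higher (Sdhc and Atp5c1) and 6 lower (Cycs, Cox5b, Cox6a2, Cox7b, Atp5j and Atp5l), against 2.82% and 1.92%.

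The medians of the members and of all genes differed in sign between untrained fibre types and in both training comparisons. Fold changes are log2 values, positive where the first-named group is higher. The median member stood at -0.14 for type I against type IIb in untrained fibres, where the median of all genes stood at 0.85, and at 0.36 in trained fibres against 0.21 for all genes. For training, the medians of members and of all genes were 0.49 and -0.28 in type I, and -0.16 and 0.36 in type IIb. These comparisons share libraries, so their values are given side by side and are not independent. Single libraries moved them widely. Between untrained fibre types the median of all genes was 3.87 without untrained type IIb 2, and that of the members was -0.49 without untrained type I 2. Between trained fibre types the medians of members and of all genes were 0.61 and 1.44 without trained type IIb 3, where the members lay below all genes, and 0.58 and -0.34 without trained type I 3. The members' median for training in type I ran from 0.20 (without trained type I 2) to 0.88 (without untrained type I 2) over left-out libraries, and that of all genes was -1.09 without trained type I 3 and -0.15 without untrained type I 3. The members' median for training in type IIb ran from -0.34 (without untrained type IIb 1) to -0.09 (without trained type IIb 2), and that of all genes was 1.57 without untrained type IIb 2 and 0 without trained type IIb 3. The signs of the medians also depended on scaling. With library totals in place of TMM factors, which ran from 0.69 to 1.62, the median of all genes between untrained fibre types moved to 1.47 and that of the members to 0.34, with 29 of 40 members above 0 in place of 15. With DESeq2 size factors the members' median there was 0.04 and that of all genes 1.17. Leaving out the 3 libraries highest in endothelial markers (untrained type I 1 and 3, trained type IIb 3) brought the members' median for training in type I to -0.02, with 19 of 40 above 0 in place of 30. Only library 2 was then left in untrained type I. Its median member level was the highest of that group, at a log2 CPM of 10.66 against 9.74 and 9.22 in libraries 1 and 3. Without untrained type I 3, the library highest in fibroblast and mural markers, the members' median for training in type I was 0.31, and without untrained type I 1, the highest in endothelial and erythroid markers, it was 0.45. The part of these markers in the result was not tested.

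**Figure D3:**
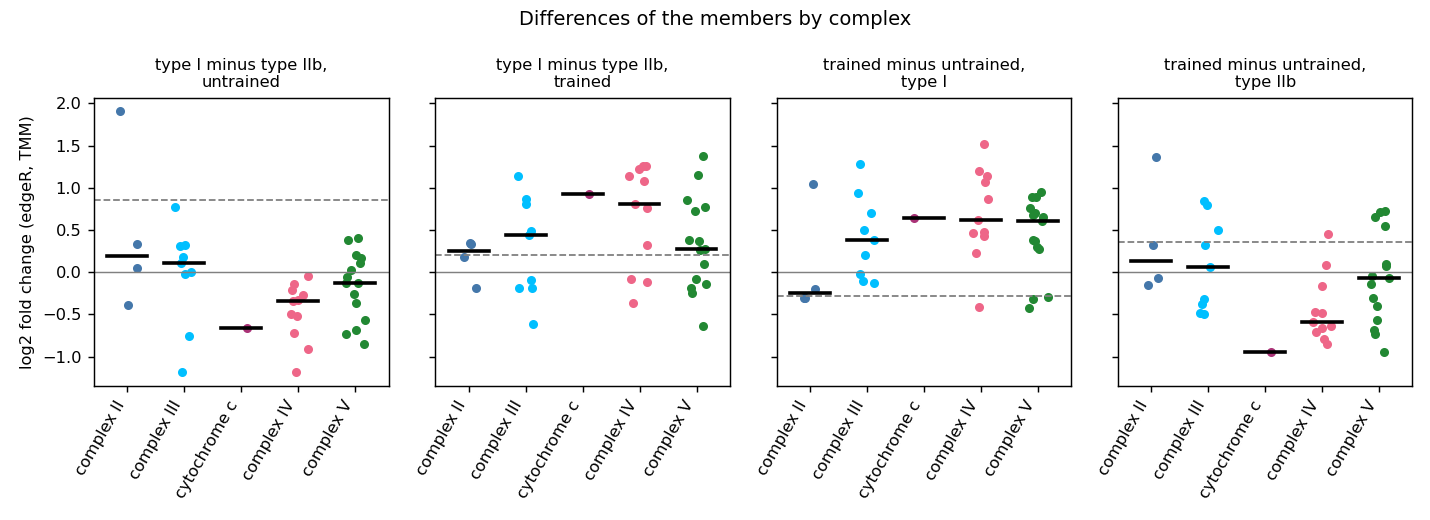
Log2 fold change from edgeR (y axis) of each member in 4 comparisons (panels), by complex (x axis); points are members, black lines are medians of the complex, and the dashed line is the median of all 11747 genes. All 11 members of complex IV lie below 0 between untrained fibre types with TMM scaling (4 of 11 with library totals), and 8 lie above 0 between trained fibre types.

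Complexes were compared within each fit, where a common scaling of the libraries cancels, as the median of a complex minus the median of the other members. With TMM scaling and all 12 libraries, complex IV and complex II stood on opposite sides of the other members in all 4 comparisons of groups. Complex IV is among the other members for complex II, and the reverse, so opposite sides are partly built in. The 4 comparisons and the interaction are computed from the same group means and are tied to one another. The same side in several of them is therefore not repeated evidence. Between untrained fibre types the median of complex IV was -0.34, a difference of -0.34 from the other members, and between trained fibre types it was 0.81, a difference of 0.48. For training its difference from the other members was 0.24 among type I fibres and -0.53 among type IIb fibres. In the interaction, the training difference in type I minus that in type IIb, the median of complex IV was 1.26, with 10 of 11 members above 0 and a difference of 0.83 from the others. Complex II differed from the other members by 0.37 between untrained and -0.15 between trained fibre types, by -0.81 for training in type I, by 0.44 in type IIb and by -0.94 in the interaction. Complex III differed by 0.37 between untrained fibre types and by -0.09 in the interaction. Complex V differed by 0.08 and -0.40. Cytochrome c, which is 1 gene and not a median over several, stood on the side of complex IV in all 4 comparisons of groups and in the interaction. It differed from the other members by -0.53 between untrained and 0.58 between trained fibre types, by 0.16 for training in type I, by -0.79 in type IIb and by 0.96 in the interaction.

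Over 24 alternative fits, complex IV stayed below the other members between untrained fibre types (-0.58 to -0.22), above them between trained fibre types (0.16 to 0.96), below them for training in type IIb (-0.86 to -0.27) and above them in the interaction (0.32 to 1.31) in all 24. For training in type I it was above in 23 of 24 (-0.01 to 0.46). Cytochrome c kept its side in all 24 in each of these comparisons except training in type I, where it was above in 22 (-0.12 to 0.38). Complex II stayed below in the interaction in all 24 (-1.36 to -0.11), above between untrained fibre types in all 24 (0.003 to 0.85) and below for training in type I in all 24 (-0.95 to -0.44). Between trained fibre types it was above in 3 and below in 21 (-0.62 to 0.29), and for training in type IIb it was above in 22 and below in 2 (-0.07 to 0.88). In the interaction complex III changed side, being above in 7 and below in 17. These are descriptions of the same 12 libraries and carry no test. Fits that change only the scaling are weak checks of these sides, since a common scaling of the libraries cancels. DESeq2 and RLE factors gave nearly the same medians, -0.154 for complex IV between untrained fibre types with either. The 24 fits are therefore not 24 separate checks. Gene length moved with the same differences. For the 20 members with a principal transcript under 796.5 bases the interaction median was 1.07, with 18 above 0, and for the 20 longer members it was 0.1, with 10 above 0. The medians of shorter and longer members were -0.30 and 0.04 between untrained fibre types and 0.75 and 0.22 between trained ones. For training they were 0.63 and 0.33 in type I, and -0.48 and 0.20 in type IIb. The log2 level of the shorter members over the longer ones ran by library from -0.10 (trained type IIb 3) to 1.81 (trained type I 2), with 1.79 in untrained type IIb 1. Among libraries of one group it spanned 0.36 to 1.79 in untrained type IIb, so this measure varied within groups as widely as between them. All members of complex II have principal transcripts of at least 1142 bases (Sdhb). In complex IV only Cox5b (865) and Cox7b (1001) exceed 796.5 bases. Complex and length thus largely coincide for complexes II and IV and can hardly be told apart there. The part of transcript length in the order of the complexes was not tested.

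Complex II oxidises succinate in the citric acid cycle and hands the electrons to ubiquinone. Levels across libraries are given for each gene as CPM, here scaled to the library total after TMM correction. Sdhb (chr4:140961203-140979193), the iron-sulphur subunit and the highest of the complex at 821 ± 495 FPKM, was at 644, 1051 and 1226 CPM in untrained type I fibres, 699, 846 and 821 in trained type I, 87.6, 1378 and 1353 in untrained type IIb and 299, 481 and 1911 in trained type IIb. Untrained type IIb library 1 stood far below the rest of its group and trained type IIb library 3 far above the rest of its own. Its difference between untrained fibre types was 0.05 ± 0.73 (SE; 95% interval -1.48 to 1.58; edgeR adjusted p = 0.996). Sdha (chr13:74322254-74350280), the flavoprotein that holds the catalytic site, was at 488, 449 and 345 CPM in untrained type I fibres, 1573, 526 and 537 in trained type I, 406, 913 and 355 in untrained type IIb and 639, 360.4 and 1097 in trained type IIb. Trained type I stood above untrained type I in all libraries, by 1.04 ± 0.56 (SE; 95% interval -0.13 to 2.21; edgeR adjusted p = 1), with trained library 1 far above the other two. Averaged over fibre type, the training difference of Sdha was 0.68 ± 0.39 (SE; 95% interval -0.14 to 1.51; edgeR adjusted p = 1), and 0.32 without trained type I library 1.

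Sdhc (chr1:171127165-171150603), a membrane anchor of the complex that helps to bind haem and ubiquinone, was at 251, 283 and 143 CPM in untrained type I fibres, 274, 191 and 125 in trained type I, 9.76, 88.6 and 81.6 in untrained type IIb and 127, 116 and 219.8 in trained type IIb. All 3 untrained type I libraries lay above all 3 untrained type IIb libraries, by 1.91 ± 0.80 (SE; 95% interval 0.23 to 3.59; edgeR adjusted p = 0.233), with an unadjusted p of 0.0282. Its count in untrained type IIb library 1 was 90, the lowest of the 12. Averaged over training it was 1.13 ± 0.56 (SE; 95% interval -0.04 to 2.29; edgeR adjusted p = 0.318). Sdhd, the other anchor, was at 61.1 to 268 CPM over the 12 libraries, with a fold change of 0.33 between untrained fibre types and 0.18 between trained ones.

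Complex III moves electrons from ubiquinol to cytochrome c and pumps protons in doing so. Uqcrb (chr13:66900617-66905378), a small supernumerary subunit near the ubiquinone site and the highest of the complex at 3795 ± 1768 FPKM, was at 1073, 1887 and 615 CPM in untrained type I fibres, 3476, 3981 and 1260.3 in trained type I, 2483, 2705 and 2900.3 in untrained type IIb and 4427, 855 and 933 in trained type IIb. Every untrained type I library lay below every untrained type IIb library, by -1.18 ± 0.57 (SE; 95% interval -2.38 to 0.03; edgeR adjusted p = 0.300). Training in type I gave 1.29 ± 0.58 (SE; 95% interval 0.08 to 2.49; edgeR adjusted p = 1), and trained type I 3 lay within the range of the untrained libraries. Averaged over fibre type, the training difference was 0.45 ± 0.40 (SE; 95% interval -0.39 to 1.29; edgeR adjusted p = 1) and turned to -0.15 without trained type IIb library 1.

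Uqcrh (chr4:116066965-116075071), the hinge protein that joins cytochrome c1 to cytochrome c, had the lowest unadjusted p of the complex for fibre type averaged over training. It was at 1056, 1765 and 575 CPM in untrained type I fibres, 1780.0, 1973 and 1064 in trained type I, 829, 1110.1 and 778 in untrained type IIb and 790.2, 633 and 755 in trained type IIb. Trained type I libraries all lay above trained type IIb libraries, by 1.14 ± 0.44 (SE; 95% interval 0.23 to 2.06; edgeR adjusted p = 0.589), while untrained groups overlapped. Averaged over training the difference was 0.73 ± 0.31 (SE; 95% interval 0.09 to 1.38; edgeR adjusted p = 0.220). With limma on log2(FPKM + 1) the averaged difference of Uqcrh was 1.11 with an adjusted p of 0.0136, in a test that called 5.04% of all genes averaged over training and 1.07% in trained fibres.

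Among the catalytic subunits, Uqcrfs1, the Rieske iron-sulphur protein, was at 211 to 1005 CPM, and Cyc1, the haem protein cytochrome c1, at 142 to 509. Uqcrc1, a core protein, was at 152 to 1329 CPM, highest in trained type IIb library 3. The other core protein, Uqcrc2, was at 66.0, 121 and 183 CPM in untrained type I fibres, 415, 174 and 121 in trained type I, 132, 160.2 and 33.5 in untrained type IIb and 0.129, 119 and 287 in trained type IIb. Its count in trained type IIb library 1 was 1, which stands under the 3 counts taken as the floor. Small subunits Uqcrq, Uqcr10 and Uqcr11 were at 270 to 1850, 796 to 3321 and 484 to 1584 CPM. Between untrained fibre types the 9 members ran from -1.18 (Uqcrb) to 0.77 (Uqcrq), with 6 above 0.

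Cytochrome c, encoded by Cycs (chr6:50562563-50566538), is the soluble carrier between complexes III and IV and also a trigger of apoptosis when released. Cycs was at 1222, 1618 and 1112 CPM in untrained type I fibres, 2037, 2954 and 1164 in trained type I, 1794, 2440.1 and 2018 in untrained type IIb and 1591, 288 and 1361 in trained type IIb. Trained type IIb library 2, at 288 CPM, was the lowest of the 12 by a wide margin. Untrained type I lay below untrained type IIb in all libraries, by -0.66 ± 0.50 (SE; 95% interval -1.70 to 0.38; edgeR adjusted p = 0.678). Trained type IIb likewise lay below untrained type IIb, by -0.95 ± 0.50 (SE; 95% interval -1.99 to 0.10; edgeR adjusted p = 0.604). The interaction was 1.59 ± 0.70 (SE; 95% interval 0.11 to 3.06; edgeR adjusted p = 0.506), with an unadjusted p of 0.0363. The averaged differences were 0.13 ± 0.35 (SE; 95% interval -0.60 to 0.87; edgeR adjusted p = 0.954) for fibre type and -0.15 ± 0.35 (SE; 95% interval -0.89 to 0.58; edgeR adjusted p = 1) for training, and both changed sign without trained type IIb library 2 (-0.09 and 0.07). Cyct, the testis form, had counts in 1 library, trained type I 3, at 0.0445 CPM.

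Complex IV reduces oxygen to water, and several of its nuclear subunits exist in a muscle form and a general form. Cox6a2 (chr7:128205435-128206387), the heart and skeletal muscle form of subunit 6a and the highest member of all at 8758 ± 3006 FPKM, was at 3299.8, 4899 and 4031 CPM in untrained type I fibres, 5847, 8393 and 2256 in trained type I, 9414, 9326 and 9133 in untrained type IIb and 8986, 2956 and 5984 in trained type IIb. Every untrained type I library lay below every untrained type IIb library, and so did trained type IIb below untrained type IIb. The untrained fibre type difference was -1.19 ± 0.42 (SE; 95% interval -2.06 to -0.32; edgeR adjusted p = 0.230), with the lowest unadjusted p among members in that comparison (0.0102, edgeR). With limma-voom and quality weights, which called 17.9% of all genes there, it was -1.24 with an adjusted p of 0.0128. In trained fibres the groups overlapped, with -0.12 ± 0.41 (SE; 95% interval -0.98 to 0.74; edgeR adjusted p = 1), and averaged over training the difference was -0.65 ± 0.29 (SE; 95% interval -1.27 to -0.04; edgeR adjusted p = 0.251).

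The muscle forms of subunits 6a and 8 outweighed their general partners in every library. Cox6a2 made up 98.5% ± 0.533 of the summed FPKM of Cox6a1 and Cox6a2 in untrained type I, 98.2% ± 1.39 in trained type I, 99.5% ± 0.658 in untrained type IIb and 99.6% ± 0.429 in trained type IIb (SD, n = 3 each). Cox8b (chr7:140898945-140900446), the muscle form of subunit 8, made up 96.6% ± 1.75, 98.8% ± 1.35, 98.3% ± 0.974 and 99.3% ± 0.973 of the sum with Cox8a in the same order. Cox6a1 had 0 counts in trained type IIb library 1 and Cox8a 0 in trained type IIb library 2. Cox8b itself was at 1237, 1810.4 and 941 CPM in untrained type I fibres, 2449.8, 5218 and 1147 in trained type I, 1846, 1025 and 1233 in untrained type IIb and 2025, 676 and 974 in trained type IIb, with 1.26 ± 0.51 (SE; 95% interval 0.18 to 2.34; edgeR adjusted p = 0.609) between trained fibre types. The 5218 CPM of trained type I library 2 was more than any other library by a wide margin, and the groups overlapped.

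Subunit 7a showed no such dominance. Cox7a1 (chr7:30184144-30186078), the heart and muscle form, was at 3180.2, 4786 and 1690.0 FPKM in untrained type I fibres, 1611, 6311 and 2426 in trained type I, 3618, 2245 and 2736 in untrained type IIb and 2487, 741 and 1920.1 in trained type IIb. Cox7a2 (chr9:79755361-79759878), the general form, was at 2627, 3689 and 2098 FPKM in untrained type I fibres, 4623, 6839 and 2731 in trained type I, 3585, 2171 and 4315 in untrained type IIb and 3114, 1197 and 1319 in trained type IIb. Cox7a1 held 51.9% ± 6.41 of the pair in untrained type I, 40.3% ± 12.5 in trained type I, 46.6% ± 6.79 in untrained type IIb and 47.3% ± 10.8 in trained type IIb (SD, n = 3 each), and all 4 groups overlapped. The pair differed little on this scale, and its order turned with the gene length used, since Cox7a1 held a mean of 56.2% with principal transcript lengths. For fibre type in trained muscle, Cox7a2 gave 1.13 ± 0.53 (SE; 95% interval 0.02 to 2.24; edgeR adjusted p = 0.614) and Cox7a1 0.81 ± 0.59 (SE; 95% interval -0.43 to 2.05; edgeR adjusted p = 0.836).

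**Figure D4:**
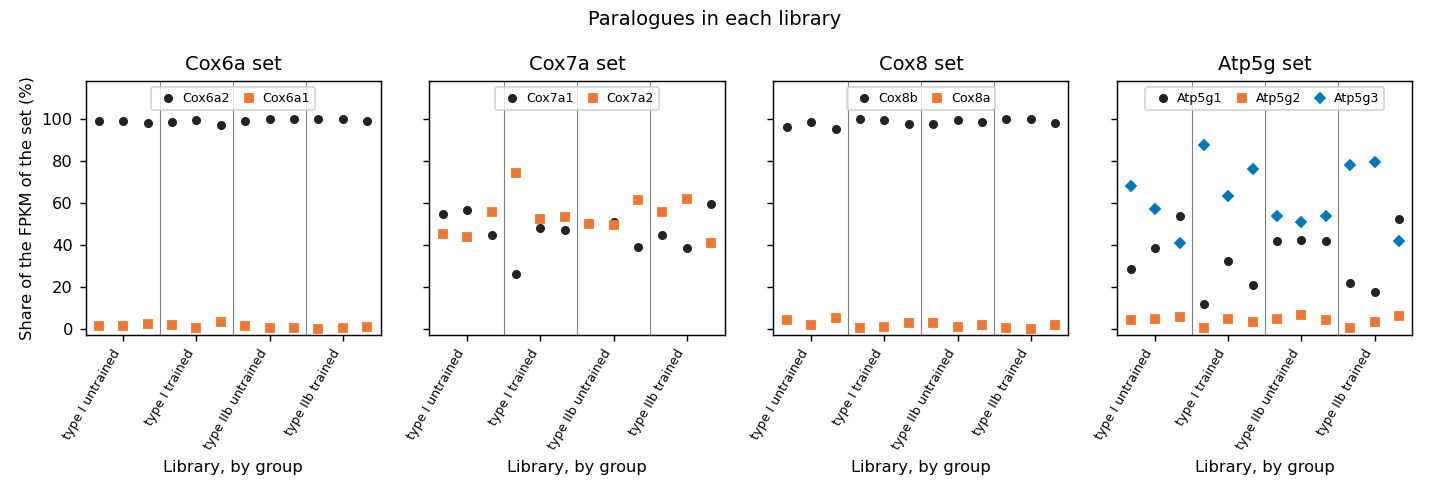
Share of the FPKM of each paralogue set (%, y axis) held by each gene, for subunits 6a, 7a and 8 of complex IV and the c subunit of complex V (panels), in 12 libraries ordered by group (x axis). Cox6a2 and Cox8b hold over 95% of their sets in every library, Cox7a1 holds 25.8% to 59.3% of its set, and Atp5g2 stays under 7%.

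In complex IV, 4 members stood at an unadjusted edgeR p under 0.05 for training in type I. Cox7c, a small subunit and the second highest member, was at 2384, 3930.4 and 1245 CPM in untrained type I fibres, 8951, 10103 and 2650.2 in trained type I, 5677, 4128 and 4436 in untrained type IIb and 6749, 1874 and 1611 in trained type IIb. Its training difference in type I was 1.52 ± 0.54 (SE; 95% interval 0.38 to 2.66; edgeR adjusted p = 1), with trained libraries 1 and 2 high and trained library 3 within the untrained range. Cox6c gave 1.07 ± 0.44 (SE; 95% interval 0.15 to 1.99; edgeR adjusted p = 1), and was at 1687, 2702 and 933 CPM in untrained type I fibres, 3918, 5194 and 2079.6 in trained type I, 2083, 2612 and 2033 in untrained type IIb and 2247, 911 and 1642 in trained type IIb. Cox7a2 and Cox8b gave 1.20 and 1.14. Without trained type I library 2 these were 0.70 and 0.44. For the interaction, Cox7c stood at 2.00 ± 0.76 (SE; 95% interval 0.40 to 3.59; edgeR adjusted p = 0.450), and Cox6c, Cox7a2 and Cox7b at 1.56, 1.86 and 1.58. In each of these genes, trained type I libraries 1 and 2 were the highest of the 12 and trained type I library 3 was not.

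Cox5a (chr9:57521274-57532426), a subunit on the matrix side and the lowest of the complex, was at 248, 217 and 261 CPM in untrained type I fibres, 187, 209 and 149 in trained type I, 432, 314 and 295 in untrained type IIb and 82.2, 172 and 325 in trained type IIb. Untrained type I libraries lay below untrained type IIb libraries, and trained type I below untrained type I. The corresponding differences were -0.52 ± 0.60 (SE; 95% interval -1.77 to 0.73; edgeR adjusted p = 0.886) and -0.41 ± 0.60 (SE; 95% interval -1.66 to 0.84; edgeR adjusted p = 1). Averaged over fibre type, the training difference of Cox5a was -0.63 ± 0.42 (SE; 95% interval -1.52 to 0.26; edgeR adjusted p = 1), with the lowest unadjusted p of the complex for that comparison (0.155, edgeR). Its sign was opposite to that of Cox7c, at 0.52. Cox4i1, the main form of the largest nuclear subunit, was at 629 to 1891 CPM, with -0.14 between untrained and -0.36 between trained fibre types. Cox5b was at 634 to 1972 CPM, Cox6b1 at 733 to 2670 and Cox7b at 562 to 2552.

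**Figure D5:**
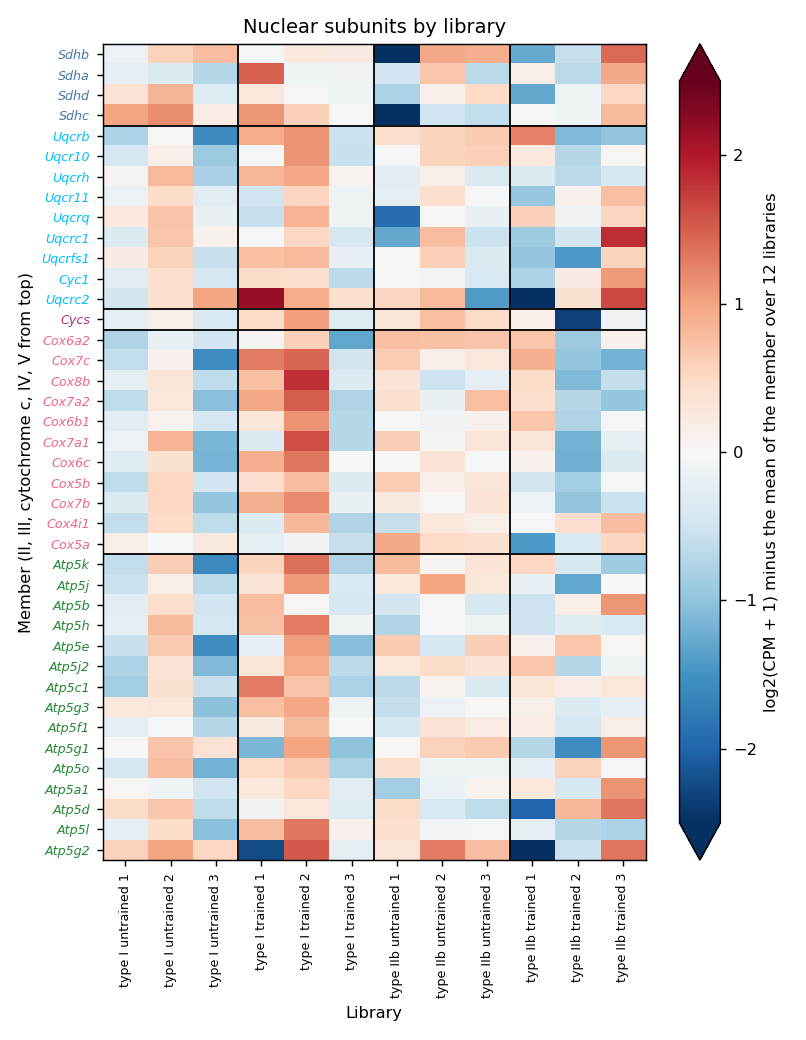
Level of each member (rows, by complex from II at the top to V) in each library (columns, by group), as log2(CPM + 1) minus the mean of that member over 12 libraries; red is above and blue below the mean. Most members of complexes III, IV and V are red in trained type I 2, and most members of complex IV are blue in trained type I 3 and in trained type IIb 2.

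Complex V joins a catalytic F1 head, a peripheral stalk and a membrane part with a ring of c subunits. Atp5k (chr5:108433244-108434448), subunit e of the membrane part and the highest of the complex at 4438 ± 2054 FPKM, was at 1051, 2465 and 539 CPM in untrained type I fibres, 2394, 4173 and 960.4 in trained type I, 2787, 1687 and 2040.3 in untrained type IIb and 2312, 1225 and 876 in trained type IIb. All 4 groups overlapped, and its differences were 0.89 ± 0.55 (SE; 95% interval -0.26 to 2.05; edgeR adjusted p = 1) for training in type I and -0.68 ± 0.55 (SE; 95% interval -1.84 to 0.47; edgeR adjusted p = 0.721) between untrained fibre types. Atp5h (chr11:115415689-115419962), subunit d of the stalk, whose promoter is shown above, was at 1098, 2224 and 949 CPM in untrained type I fibres, 2144, 3153 and 1197 in trained type I, 766, 1295 and 1172 in untrained type IIb and 903, 1046 and 981 in trained type IIb. Trained type I lay above trained type IIb in every library, by 1.15 ± 0.44 (SE; 95% interval 0.24 to 2.06; edgeR adjusted p = 0.579). Averaged over training the difference was 0.77 ± 0.31 (SE; 95% interval 0.13 to 1.42; edgeR adjusted p = 0.183), the lowest adjusted p of any member in that comparison. Atp5h and Uqcrh were called in that comparison with library totals in place of TMM (Atp5h 1.17, adjusted p = 0.0116; Uqcrh 1.13, adjusted p = 0.0269; edgeR), as were 1.82% of all genes.

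Atp5c1 (chr2:10056016-10080510), the gamma subunit of the rotor, was at 732, 1738 and 899 CPM in untrained type I fibres, 3274, 2204 and 774 in trained type I, 841, 1422 and 1049 in untrained type IIb and 1656, 1533 and 1639 in trained type IIb. Averaged over fibre type, its training difference was 0.72 ± 0.33 (SE; 95% interval 0.02 to 1.41; edgeR adjusted p = 1), with an unadjusted p of 0.0440, and in type I the groups overlapped. Atp5j, subunit F6 of the stalk, was at 1349.6, 2203 and 1227 CPM in untrained type I fibres, 2483, 4086 and 1511 in trained type I, 2340.1, 3905 and 2363 in untrained type IIb and 1704, 797 and 1972 in trained type IIb. Untrained type I and trained type IIb both lay below untrained type IIb, by -0.85 ± 0.43 (SE; 95% interval -1.76 to 0.06; edgeR adjusted p = 0.334) and -0.94 ± 0.43 (SE; 95% interval -1.85 to -0.04; edgeR adjusted p = 0.597), and the interaction was 1.70 ± 0.61 (SE; 95% interval 0.42 to 2.98; edgeR adjusted p = 0.424). Its exons overlap those of Gabpa over 12.7% of their length, and reads of the 2 genes cannot be parted there without strand. Atp5l, subunit g, was at 218, 350.4 and 123 CPM in untrained type I fibres, 431, 636 and 273 in trained type I, 340.0, 241 and 248 in untrained type IIb and 215, 154 and 147 in trained type IIb, with 1.38 ± 0.58 (SE; 95% interval 0.16 to 2.59; edgeR adjusted p = 0.609) between trained fibre types.

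The c subunit is made from 3 genes that yield the same mature protein. Atp5g1 (chr11:96068852-96075670) was at 745, 924 and 1029 FPKM in untrained type I fibres, 199, 879 and 427 in trained type I, 515, 679 and 754 in untrained type IIb and 265, 124 and 1032 in trained type IIb. Atp5g3 (chr2:73908447-73911326) was at 1789, 1369.8 and 778 FPKM in untrained type I fibres, 1478, 1728 and 1554 in trained type I, 665, 817 and 969 in untrained type IIb and 946, 571 and 829 in trained type IIb. Atp5g2 (chr15:102662864-102672352), whose window alone of these held an NRF1 match, was at 105, 106 and 107 FPKM in untrained type I fibres, 7.58, 122 and 66.6 in trained type I, 57.9, 105 and 76.1 in untrained type IIb and 0.823, 22.8 and 115 in trained type IIb, with 5 counts in trained type IIb library 1. Atp5g3 held 55.2% ± 13.7 of the set in untrained type I, 75.6% ± 12.2 in trained type I, 52.9% ± 1.61 in untrained type IIb and 66.5% ± 21.3 in trained type IIb (SD, n = 3 each). The share of Atp5g1 ran from 11.8% to 53.8% over the 12 libraries and that of Atp5g2 from 0.068% to 6.58%. These shares rest on gene lengths of 2665 bases for Atp5g1 and 772 for Atp5g3. Without division by length Atp5g1 was the higher, at a mean of 1654 CPM against 869 for Atp5g3. With principal transcript lengths Atp5g3 held a mean of 63.9% and Atp5g1 32.1%. Over the mean of 12 libraries, the lead of Atp5g3 thus held per length and not in counts. Single libraries departed from this. In counts, Atp5g3 was above Atp5g1 in trained type I 1 and 3 and in trained type IIb 1 and 2. Its share of the set's counts there ran from 50.4% (trained type I 3) to 68.1% (trained type I 1). Per length, Atp5g1 was the higher in untrained type I 3 (53.8% against 40.6%) and trained type IIb 3 (52.2% against 41.9%). Untrained and trained groups overlapped in type I and in type IIb for the share of Atp5g3. The training differences in type I were -0.42 ± 0.60 (SE; 95% interval -1.68 to 0.84; edgeR adjusted p = 1) for Atp5g1, -0.32 ± 1.46 (SE; 95% interval -3.38 to 2.75; edgeR adjusted p = 1) for Atp5g2 and 0.65 ± 0.45 (SE; 95% interval -0.30 to 1.60; edgeR adjusted p = 1) for Atp5g3.

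Of the F1 part, Atp5a1 (alpha), Atp5b (beta), Atp5d (delta) and Atp5e (epsilon) were at 231 to 919, 1436 to 4438, 35.4 to 360 and 427 to 2595 CPM. The alpha and beta subunits form the head in equal number in the enzyme, and their RNA levels per length were 301 ± 114 FPKM and 2500.4 ± 948 FPKM (SD over 12 libraries). With principal transcript lengths these were 183 and 1142 FPKM. For training in type IIb the pair stood at 0.72 and 0.66, on the other side of 0 from Atp5j. Of the stalk, Atp5f1 (subunit b) was at 546 to 1534 CPM and Atp5o (the oligomycin sensitivity protein) at 171 to 657. Atp5j2 (subunit f) was at 624 to 2581 CPM. For training in type I, 12 of 15 members of complex V stood above 0, with a median of 0.60, and none passed the edgeR test. Without the 3 libraries highest in endothelial markers, which left only library 2 in untrained type I, 7 of 15 stood above 0 (median -0.02). With library totals 9 of 15 did (median 0.24).

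Subunits encoded in mitochondrial DNA were all below 0 between untrained fibre types, and 0 of 6 passed the edgeR test in any comparison. mt-Cytb of complex III was at 18259, 18976 and 28346 CPM in untrained type I fibres, 23279.7, 79557 and 5134 in trained type I, 65195, 108989.8 and 85266 in untrained type IIb and 60326, 82039 and 93605 in trained type IIb. Untrained type I libraries all lay below untrained type IIb libraries, by -1.98 ± 0.74 (SE; 95% interval -3.62 to -0.34; edgeR adjusted p = 0.230). mt-Atp6 of complex V was at 237, 238 and 132 CPM in untrained type I fibres, 439, 1201 and 215 in trained type I, 1031, 639 and 950.2 in untrained type IIb and 1002, 1083 and 446 in trained type IIb, with -2.11 ± 0.59 (SE; 95% interval -3.35 to -0.87; edgeR adjusted p = 0.194). All 6 such subunits (mt-Cytb, mt-Co1, mt-Co2, mt-Co3, mt-Atp6 and mt-Atp8) had a median there of -1.94, and 4 of them had an unadjusted edgeR p under 0.05. In trained fibres the 6 also lay below 0 with TMM scaling, with a median of -0.63, where the median of the nuclear members was 0.36. With library totals in place of TMM factors 1 of the 6 lay above 0 there (median -0.44), as did 2 of the 6 without the 2 libraries with the fewest genes (median -0.54). The 6 had a median training difference of 1.5 in type I fibres and -0.06 in type IIb fibres. The type I median was 0.92 with library totals and 0.59 by limma-voom with quality weights, where 4 of the 6 lay above 0. Transcripts of mitochondrial DNA took 5.86% (trained type I 3) to 34.7% (trained type I 2) of all counts, a range set by 2 libraries of one group.

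None of the further listed genes of these complexes was called by edgeR. Of 13 further nuclear subunits and isoforms, 7 passed the filter on low counts, and 0 of 7 were called by edgeR in any comparison. Ndufa4, a subunit of complex IV named for complex I, was at 1275, 1764 and 894 CPM in untrained type I fibres, 2622, 3502 and 1538 in trained type I, 2040.2, 1999 and 2203 in untrained type IIb and 1765, 2134 and 1476 in trained type IIb, and its training difference in type I was 0.96 ± 0.38 (SE; 95% interval 0.17 to 1.75; edgeR adjusted p = 1). Cox8c had no count in any library, and Cox4i2, Cox6b2 and Cox7b2 stayed under 5 CPM. Of 36 assembly factors, 32 passed the filter and 0 were called. Their medians were 0.14 between untrained and 0.67 between trained fibre types. The lowest unadjusted edgeR p among them was that of Sdhaf4, an assembly factor of complex II, between trained fibre types, at 3.13 ± 0.82 (SE; 95% interval 1.41 to 4.86; edgeR adjusted p = 0.155).

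The spread between libraries of a group was the measure these differences were set against. The coefficient of variation within groups was 0.396 for the median member (0.252 for Atp5f1 to 0.712 for Atp5g2), compared with 0.993 for the median of all genes tested, at a median level of 1188 CPM for members and 9.65 CPM for all genes. Members had at least 10 counts in every library except Uqcrc2 and Atp5g2 in trained type IIb library 1. Exons of 13 members overlap those of another gene, 0 of them over more than 50% of their length. The overlap was largest for Atp5o, at 47.9% (35.6% with genes on the opposite strand), so its levels carry this limit. Atp5o also has a second identifier without a count that was left out. Of 12 pseudogenes named after members, 8 had a count, with at most 388 counts in a library, so reads shared with such copies are a limit for low values.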

How the data were processed

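Single muscle fibres were sequenced after SMART-Seq HT amplification and Nextera XT library preparation, per the labels' protocols; neither step marks strand or molecules. Read counts, deposited per gene and library, are whole numbers and not normalised. The deposited FPKM values were computed by the authors; they equal the count divided by gene length and library total, within 0.1% for 94.5% of nonzero values and by at most 0.361%. Per the submitters' processing notes, TopHat2 and mm10 were used; the counting program, tool versions and annotation were not given in the sources used here. Gene models came from GENCODE M21, whose coordinates match all 40 members.

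Members, gene lists and tests were chosen with earlier results of these data known. Genes passing filterByExpr (minimum count 10, minimum total count 15) numbered 11747, including all 40 members. One edgeR 4.0.16 quasi-likelihood model with TMM factors (R 4.3.3) covered the 4 groups and 7 comparisons, with Benjamini-Hochberg adjustment over all tested genes and a threshold of 0.05. Standard errors were the log2 fold change over the square root of F. The scripts were tested on simulated counts. P-values measure the spread between these libraries, which may be technical. Alternatives used DESeq2 1.42.0, limma 3.58.1 (voom, or log2 of FPKM plus 1 or 0.1), other filters and scalings, a replicate block and left-out libraries. Complex shares are descriptions with no test. All 40 members are named; values per library are given for the highest member of each complex, for the lowest p in both averaged comparisons, for paralogue sets and, chosen after their values were seen, for other members with an unadjusted p under 0.05 or a count under 10.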

Additional observations from a re-analysis of the deposited data

How the results depend on the processing

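In each of the 7 comparisons 0 members were called by edgeR and DESeq2. The same held for edgeR with any 1 library left out, the replicate block, RLE factors and both other count filters. It also held without the 2 libraries with the fewest genes. Calls without the 3 libraries highest in endothelial markers are not given, since only library 2 was then left in untrained type I. Exceptions came from other scales. limma-voom called 6 members between untrained fibre types (Cycs, Cox6a2, Atp5j, Atp5j2, Uqcr10 and Uqcrb, all lower in type I), where it called 17.9% of all genes. limma on log2(FPKM + 1) called 3 members between trained fibre types and 2 averaged over training, against 1.07% and 5.04% of all genes. With a pseudocount of 0.1 these were 4 and 3 members, against 115 and 562 of 11747 genes. All members called by limma on FPKM were higher in type I. Averaged over training, edgeR with library totals called 2 members (1.82% of all genes). With nuclear genes and library totals it called 1 (Atp5h), against 213 of 11690 genes. These calls lie in tests without TMM, except voom; the cause was not tested. Of 744 values of 31 gene results, 720 kept direction and call, 15 became called and 9 changed sign. The training difference of Uqcrb averaged over fibre type became -0.10 with voom, -0.036 with either FPKM pseudocount, -0.18 when both libraries with fewest detected genes were left out, and -0.154 to 0.714 over single left-out libraries, negative without trained type IIb 1. The averaged fibre type difference of Cycs ran from -0.085 to 0.331 over left-out libraries, negative without trained type IIb 2, trained type I 2 (-0.038) or untrained type I 2 (-0.00951), and its training difference from -0.349 to 0.067, positive without trained type IIb 2; the cause was not tested. By summed CPM, which gives long genes more weight by construction, the share of complex II was 3.88%, cytochrome c 3.12%, complex IV 43.1% and complex V 33.1%. Cytochrome c took 1.42% without the highest member of each other complex and 0.693% with principal transcript lengths. Same-numbered libraries of different groups correlated by -0.126 to 0.177 in their deviations, 4 of 18 pairs over 0.1. Other-numbered libraries correlated by -0.174 to 0.189. With few libraries a group, these values cannot tell whether same-numbered libraries came from one mouse or batch. The replicate block called 0 members in each comparison and 42 genes in place of 54 between untrained fibre types. The alternatives without TMM, with nuclear genes, with principal lengths and without libraries chosen for endothelial markers or few genes were chosen after seeing the data.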
